A study of Mus musculus with 2 samples.

Results

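The Wnt ligand genes described here are the 10 genes Wnt1, Wnt3, Wnt3a, Wnt4, Wnt5a, Wnt5b, Wnt6, Wnt7a, Wnt7b and Wnt8b, taken by gene symbol from the 32285 genes listed in the deposited count matrices. The other 9 Wnt ligand genes in the matrices were Wnt2, Wnt2b, Wnt8a, Wnt9a, Wnt9b, Wnt10a, Wnt10b, Wnt11 and Wnt16. RNA of single cells was counted in 1 control library and 1 library of embryos with neural tube defects (NTD), both labelled mouse brain tissue. The NTD embryos came from dams kept on a low-folate diet that received methotrexate (MTX), a folate antagonist, at 1.5 mg/kg into the peritoneum on gestational day 7.5. They were small and delayed, mainly with hindbrain malformations and spina bifida. The control library is labelled with normal saline, and its embryos had closed neural tubes. The closure of the tube was followed from E9.5 to E10.5. The labels do not state the age at collection, the mouse strain, the number of embryos behind each library or the diet of the control dams. With 1 library per group no test across samples was possible, so values are given with 95% counting intervals, and differences between the libraries have no replicate check.

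Wnt proteins are secreted, lipid-modified signals. The acyltransferase Porcupine attaches the lipid and the carrier Wntless (gene Wls) brings the protein to the cell surface, where Frizzled receptors bind it together with Lrp5 or Lrp6, or with Ror co-receptors. Binding can stabilise beta-catenin, which works with TCF and LEF factors in the nucleus, or can act on the cytoskeleton and planar cell polarity, a route best known for Wnt5a. In the early neural tube, Wnt1 and Wnt3a mark the dorsal midline and, for Wnt1, the midbrain-hindbrain boundary. Wnt8b marks the dorsal and caudal forebrain, including the cortical hem, Wnt7a and Wnt7b are made by neural progenitors, and the ventral midline and mesenchyme make Wnt5a. The surface ectoderm makes Wnt6, together with Wnt3 and Wnt4.

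The members lie on 7 chromosomes of mouse build GRCm38. Wnt6 is at chr1:74771892-74785322, Wnt4 at chr4:137277489-137299726, and Wnt7a and Wnt5b at chr6:91363981-91411363 and chr6:119432531-119544347. Wnt3a is at chr11:59248033-59290752, Wnt3 at chr11:103774150-103817957 and Wnt5a at chr14:28504750-28527448. Wnt7b is at chr15:85535437-85582473, Wnt1 at chr15:98789857-98793837 and Wnt8b at chr19:44493472-44514273. Of these, 4 have another Wnt ligand as a close neighbour: 6193 bases separate Wnt6 from Wnt10a, 11706 bases Wnt1 from Wnt10b, 16175 bases Wnt3a from Wnt9a and 24328 bases Wnt3 from Wnt9b. Of these neighbours, 29 and 24 UMIs of Wnt10a and 29 and 17 of Wnt10b were counted in the control and NTD cells, 205 and 254 of Wnt9a and 50 and 58 of Wnt9b.

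Promoter sequences show how differently the ligand genes begin. The 250 bases before the start of 3 members are printed 5′ to 3′ on the gene's strand, from the RefSeq table of build GRCm38.p6, with CpG dinucleotides in capitals. Wnt1 and Wnt3a are shown because their levels ran together across the cell clusters in both libraries. Wnt8b is shown because its promoter was the exception in base composition. The direction of its ratio between the libraries was also not the same in every weighting of the cell clusters. The windows are chr15:98789607-98789856 on the plus strand for Wnt1, chr11:59290752-59291001 on the minus strand for Wnt3a, and chr19:44493222-44493471 on the plus strand for Wnt8b.
Wnt1: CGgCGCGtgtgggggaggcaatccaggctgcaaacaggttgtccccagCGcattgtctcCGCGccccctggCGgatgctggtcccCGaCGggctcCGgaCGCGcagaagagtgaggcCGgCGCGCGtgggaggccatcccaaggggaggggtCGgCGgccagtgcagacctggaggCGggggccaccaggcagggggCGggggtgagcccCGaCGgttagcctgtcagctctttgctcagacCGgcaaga
Wnt3a: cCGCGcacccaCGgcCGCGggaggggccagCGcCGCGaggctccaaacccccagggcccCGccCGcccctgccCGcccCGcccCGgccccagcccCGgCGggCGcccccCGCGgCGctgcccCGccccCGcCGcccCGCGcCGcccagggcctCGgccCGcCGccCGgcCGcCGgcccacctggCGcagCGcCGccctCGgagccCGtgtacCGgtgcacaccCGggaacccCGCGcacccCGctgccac
Wnt8b: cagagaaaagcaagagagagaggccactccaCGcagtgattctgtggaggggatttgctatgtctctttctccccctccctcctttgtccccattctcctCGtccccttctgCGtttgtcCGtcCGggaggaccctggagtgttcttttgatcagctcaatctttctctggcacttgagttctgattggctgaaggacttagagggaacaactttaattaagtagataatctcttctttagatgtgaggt
The Wnt1 window had 23 CpG dinucleotides and 71.6% G and C, the Wnt3a window 41 and 87.6%, and the Wnt8b window 5 and 48.4%. Across the 27018 promoters of that table the median was 6 CpG dinucleotides and 52% G and C. The table matched 8 of the 10 members, without Wnt5a and Wnt7b. The other 5 matched members had 22 to 44 CpG dinucleotides, so Wnt8b was the only one of the 8 below the median of all promoters. The GC box GGGCGG, searched on both strands, was found in each matched member except Wnt8b, from 1 copy in Wnt1 and Wnt5b to 9 in Wnt3a, and 32.9% of all promoters held it. The TCF and LEF core CTTTGA was in none of the 8 windows and in 14% of all promoters. Its variant CTTTGT occurred once, in Wnt8b, and in 16.5% of all promoters. These are matches of letters in a short window and not binding sites.

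After the top 15% of doublet scores were removed from each library, 15786 of 18572 control cells and 16198 of 19056 NTD cells were kept. They held 39543018 and 45436020 UMIs (unique molecular identifiers, each standing for 1 captured RNA molecule), with medians of 2167 and 2437 UMIs per cell. The 26 clusters were named from marker genes, and 21 of them took 13 class names ending in "-like". Tissue content differed between the libraries and went beyond brain. Neural progenitor-like cells were 13% of control and 23.5% of NTD cells, roof plate-like cells 1.74% and 5.09%, mesenchyme-like cells 26.0% and 19.4%, and muscle-like cells numbered 378 and 20. In 7 clusters over 90% of the cells came from 1 library. Hox UMIs in red cells also differed: 55.2% of control and 15.7% of NTD erythroid-like barcodes held one. Whether these UMIs came from RNA outside cells, from doublets left in or from the red cells themselves was not tested. The level in erythroid-like cells is given as a background beside the ligands. Of the barcode sequences, 105 occurred in both libraries.

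Over all kept cells, Wnt4 was lower in the NTD library and Wnt8b higher. Levels are UMI counts of the summed cells scaled to a total of 1000000 (CPM), which follow the 3′ end of each RNA and are not divided by gene length. Wnt4 was at 30.6 and 13.3 CPM in control and NTD cells, from 1211 and 606 UMIs, a log2 ratio of -1.20 (95% interval -1.34 to -1.06). Wnt1 went from 6.02 to 3.92 CPM (-0.62, -0.91 to -0.33) and Wnt6 from 11.6 to 7.44 CPM (-0.64, -0.85 to -0.43). These 3 of 10 ligands were at least 1.5-fold lower, where 22.1% of the 19789 genes with at least 20 UMIs were lower by that much. Wnt8b went from 10.3 to 19.9 CPM (0.95, 0.78 to 1.12), the 1 ligand at least 1.5-fold higher, against 5.28% of all genes. At 2-fold 1 ligand was lower and 0 higher, against 9.76% and 1.61% of all genes. The median ratio of the 10 ligands was -0.03 and that of all genes -0.24.

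The other 6 ligands differed by less than 1.5-fold over all kept cells. Wnt7b, a progenitor ligand, was at 21.9 and 31.3 CPM (0.51, 0.39 to 0.64). Wnt5b was the most abundant of the 10 in UMIs, at 95.8 and 77.3 CPM (-0.31, -0.38 to -0.24), and Wnt5a came next at 43.7 and 38.3 CPM (-0.19, -0.29 to -0.10). Wnt3 was at 6.68 and 7.97 CPM, Wnt3a at 4.07 and 4.49 CPM and Wnt7a at 6.30 and 7.51 CPM. With TMM scaling, which moved the median of all genes by 0.25, Wnt5a turned to 0.06 and the counts became 1 lower and 2 higher.

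**Figure D1:**
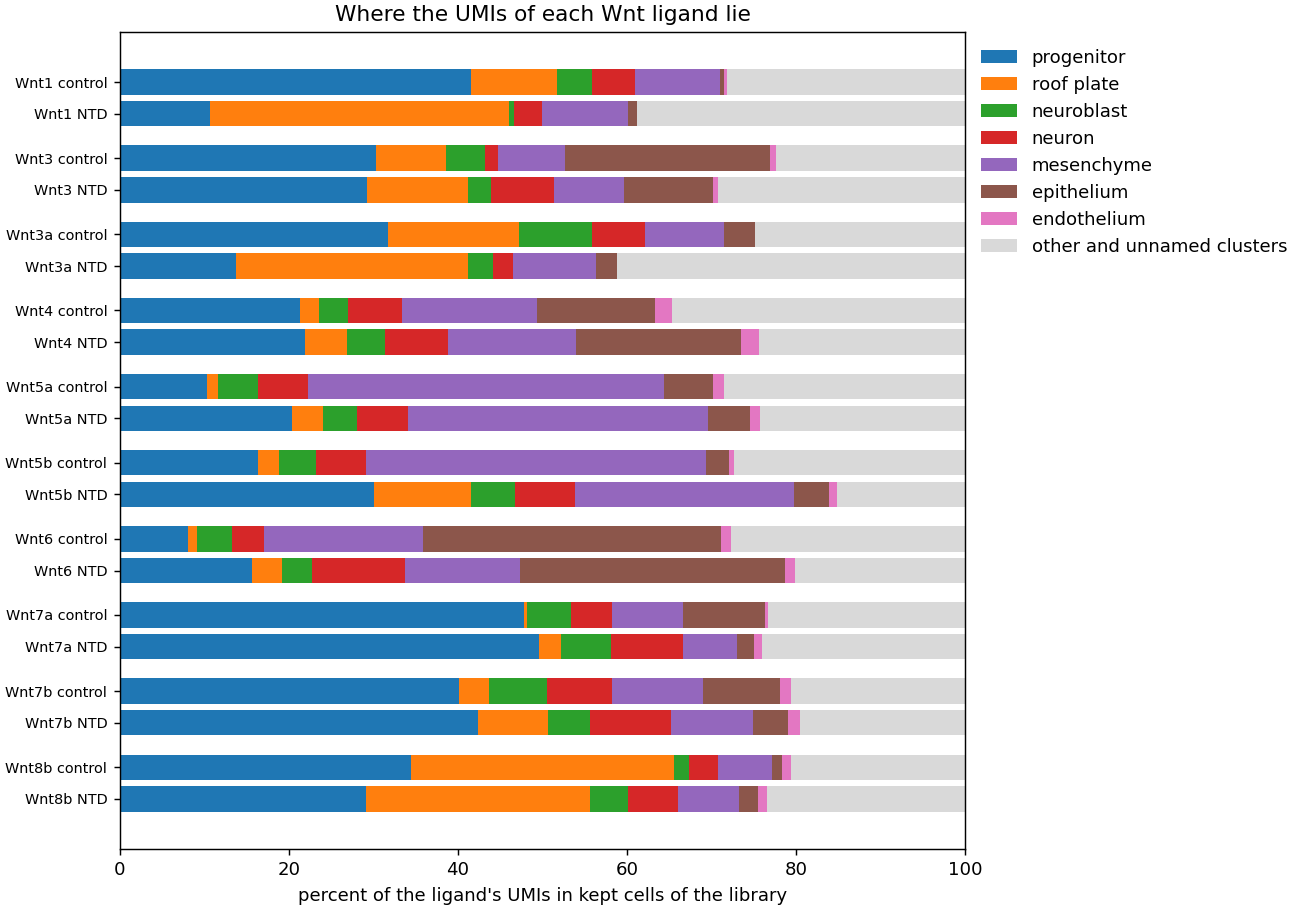
Percent of each ligand's UMIs that lay in each cell class (x axis, 0 to 100) for the control and NTD library (1 bar each per ligand). Neural progenitor-like cells held 41.6% of the Wnt1 UMIs in control and 10.7% in NTD, while the roof plate-like share of Wnt1 was 10.1% and 35.4%.

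The cells that carried each ligand followed its known source, but not in equal parts in the libraries. Wnt7a and Wnt7b UMIs lay more in neural progenitor-like cells than in any other class, with 47.8% and 49.6% of Wnt7a in control and NTD and 40.1% and 42.4% of Wnt7b. Wnt6 lay in epithelium or surface ectoderm-like cells, with 35.4% and 31.4% of its UMIs, and Wnt5a in mesenchyme-like cells, with 42.1% and 35.5%. Wnt5b divided between mesenchyme-like (40.2% and 25.8%) and progenitor-like cells (16.3% and 30.1%). Wnt8b divided between progenitor-like (34.4% and 29.1%) and roof plate-like cells (31.2% and 26.5%). Wnt4 was the most spread: progenitor-like, mesenchyme-like and epithelium-like cells each held between 14% and 21.9% of its UMIs in both libraries. Its mesenchyme-like level is read as background below.

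Setting the cluster shares of the libraries equal turned the direction of Wnt8b and Wnt3 in one weighting and that of Wnt3a and Wnt7a in both. When the control clusters were weighted by the NTD shares, the control level of Wnt8b became 26.2 CPM in place of 10.3 CPM, above the NTD level of 19.9 CPM, and its log2 ratio turned from 0.95 to -0.39. At the control shares it was 0.32. Wnt4 stayed lower either way (-1.03 and -0.85), as did Wnt6 (-0.65 and -0.82) and Wnt1 (-0.75 and -1.46). Wnt7b came to 0.06 and 0.16, Wnt3a to -0.39 and -0.57, Wnt7a to -0.22 and -0.30, and Wnt3 to -0.05 and 0.25. How much of these ratios comes from the tissue that was taken and how much from the treatment cannot be told apart.

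**Figure D2:**
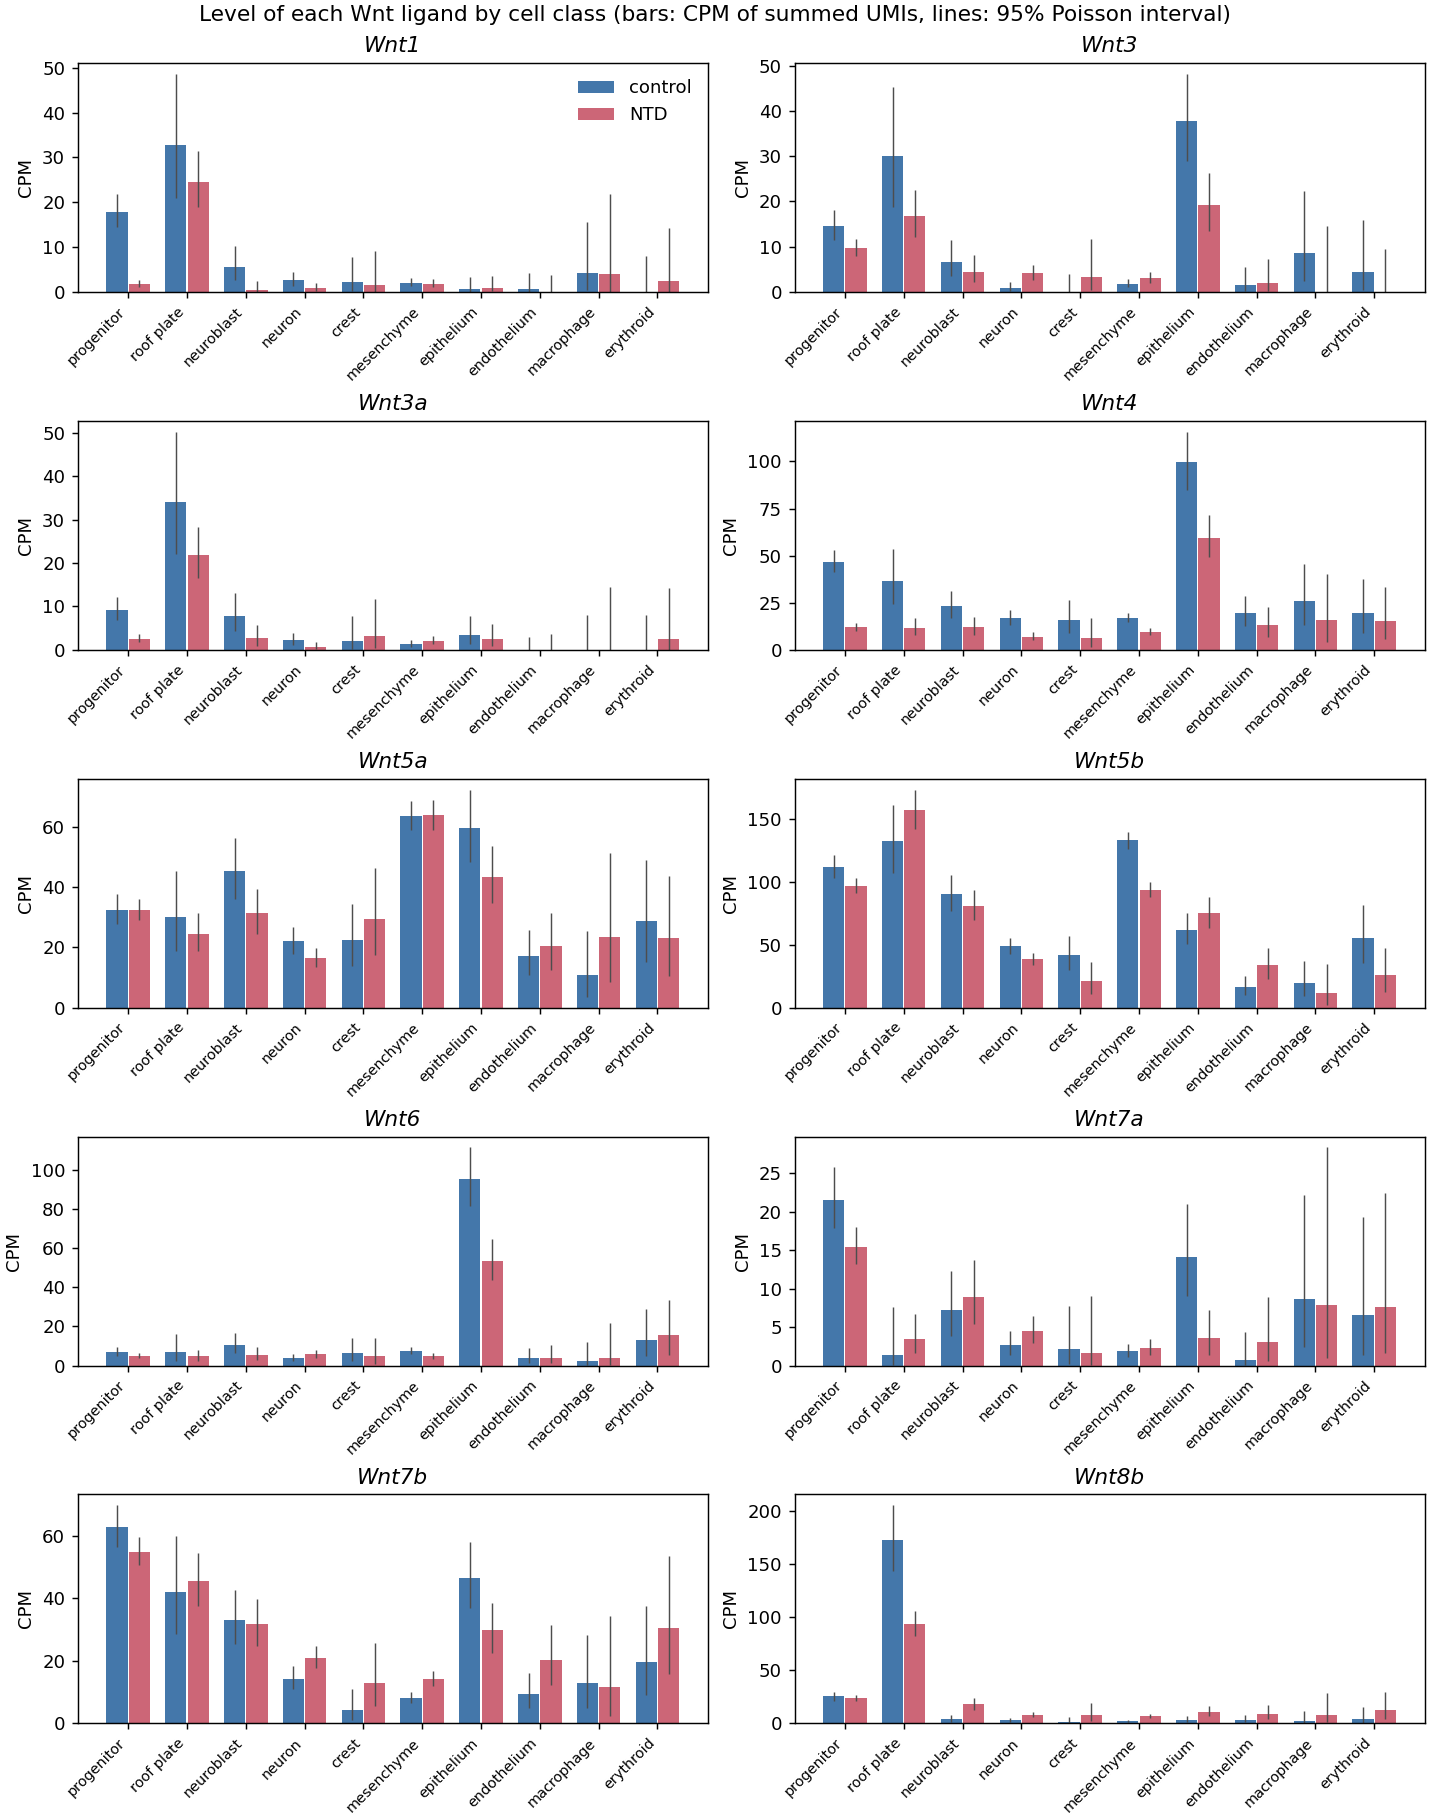
Level of each ligand (CPM, y axis) by cell class in the control and NTD library, with 95% Poisson intervals as lines. Wnt6 peaked in epithelium-like cells at 95.4 and 53.5 CPM in control and NTD cells, and Wnt8b in roof plate-like cells at 173 and 93.5 CPM.

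The neural tube wall was read from 6 clusters, chosen after the clusters had been seen. Progenitor-like clusters were cluster 2, with forebrain genes such as Nkx2-1 and Lhx2 (507 control and 1952 NTD cells), cluster 4, with Otx2 (500 and 1817), and cluster 14, rich in Hox genes of the posterior neural tube (1038 and 39). Cluster 13 was roof plate-like (274 and 824), with Lmx1a, Bmp6 and the R-spondins, and Wnt8b itself was among its leading genes. The others stayed unnamed: cluster 11 with the boundary genes Pax5, En1 and En2 (318 and 814), and cluster 16 with Foxa2, Ntn1, Spon1 and Lmx1a of the ventral midline (289 and 474). Together they held 18.5% of control and 36.5% of NTD cells. Thus 1038 of the 2045 control progenitor-like cells were of the Hox-rich cluster, against 39 of the 3808 NTD ones.

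In progenitor-like cells Wnt1, Wnt3a and Wnt4 were lower in the NTD library. Wnt1 was at 17.9 and 1.74 CPM, from 99 and 19 UMIs (-3.34, -4.16 to -2.65), Wnt3a at 9.24 and 2.56 CPM, from 51 and 28 UMIs (-1.84, -2.57 to -1.16), and Wnt4 at 46.7 and 12.2 CPM, from 258 and 133 UMIs (-1.94, -2.26 to -1.64). These 3 of 10 were at least 1.5-fold lower, against 15.8% of 15438 genes, and none was higher, against 6.42%. The median of the 10 was -0.48 and that of all genes -0.18. All 10 ratios were below 0, but with TMM scaling, which shifted all genes by 0.22, Wnt5b and Wnt7b came to 0.01 and 0.03. Without the Hox-rich cluster 14, which held 93 of the 99 control Wnt1 UMIs, the ratios were -0.60 for Wnt1 (-1.91 to 1.09), -0.88 for Wnt3a (-1.89 to 0.31) and -0.84 for Wnt4 (-1.32 to -0.33), while Wnt8b moved from -0.08 to -1.10 (-1.41 to -0.78).

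**Figure D3:**
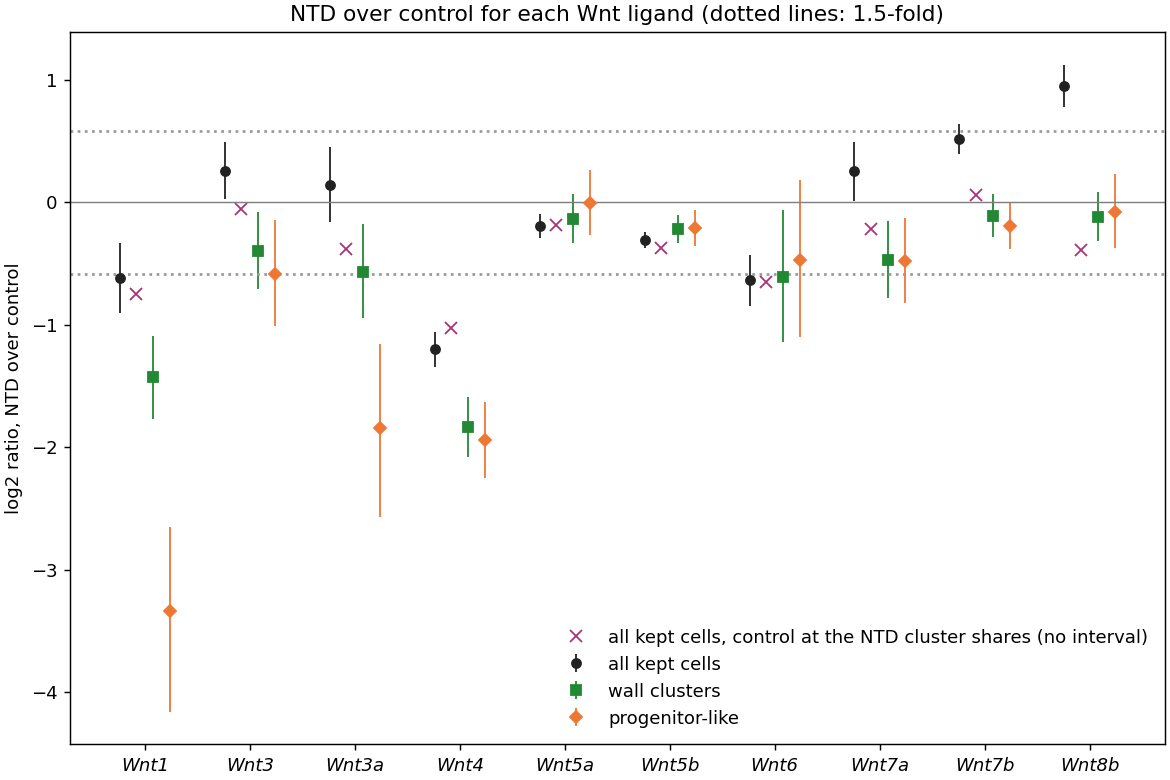
Log2 ratio of NTD over control for each ligand (y axis), with 95% intervals. Readings are all kept cells, the neural tube wall clusters and neural progenitor-like cells. Crosses, without interval, are all kept cells with the control clusters at the NTD shares. Wnt8b sits at 0.95 over all kept cells and at -0.39 at the crosses. Wnt4 is below -1 over all kept cells, in progenitor-like cells and at the crosses.

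Wnt1, the ligand of the dorsal midline and the midbrain-hindbrain boundary, was found in 4 wall clusters. In roof plate-like cells it was at 32.7 and 24.5 CPM in control and NTD cells, from 24 and 63 UMIs (-0.43, -1.11 to 0.33). In the boundary-gene cluster 11 it was at 31.2 and 14.8 CPM, from 25 and 35 UMIs (-1.08, -1.86 to -0.27), and in cluster 16 at 16.5 and 10.2 CPM (-0.70, -1.87 to 0.49). In the Hox-rich cluster 14 the control level was 29.6 CPM. The 39 NTD cells there held no Wnt1 UMI, which allows up to 28.2 CPM (3 counts of their total), and the control interval reaches from 23.9 to 36.2 CPM, so a difference in that cluster was not detectable at this depth. The forebrain and Otx2 clusters had little: 1.60 and 1.40 CPM in cluster 2, and 3.56 and 2.15 CPM in cluster 4. Erythroid-like cells held 0 and 1 UMI of Wnt1. Wnt1 was thus lower beyond counting error in the boundary cluster, and not in the roof plate-like cluster, but the difference between these clusters was not tested.

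Wnt3a, a dorsal midline ligand that drives progenitor growth, followed Wnt1 in its places. It was at 34.0 and 21.8 CPM in roof plate-like cells, from 25 and 56 UMIs (-0.66, -1.35 to 0.10), at 24.9 and 23.2 CPM in cluster 11 (-0.12), and at 12.7 CPM in the control cells of cluster 14. Cluster 14 had 40 UMIs of Wnt3a in control and none in NTD cells, where the limit is again 28.2 CPM. Over all 6 wall clusters Wnt1 was at 20.5 and 7.61 CPM (-1.43, -1.77 to -1.09) and Wnt3a at 12.4 and 8.36 CPM (-0.57, -0.95 to -0.18). In the wall as a whole 3 of the 10 ligands were at least 1.5-fold lower and none higher, against 15.1% and 5.33% of genes.

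**Figure D4:**
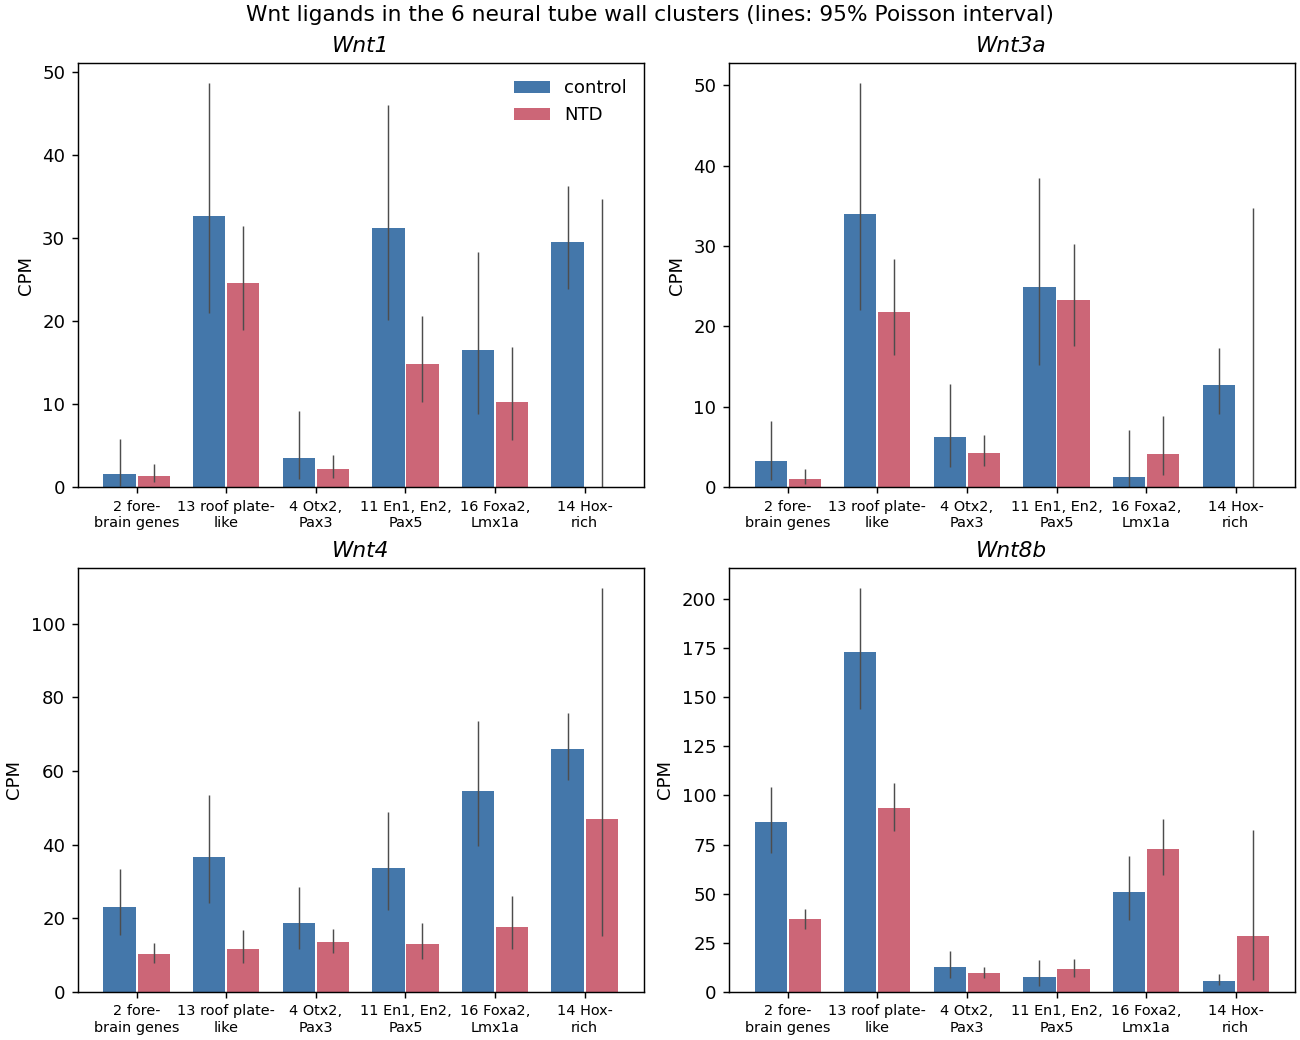
Level (CPM, y axis) of Wnt1, Wnt3a, Wnt4 and Wnt8b in the 6 neural tube wall clusters of each library, with 95% Poisson intervals as lines. Wnt4 is lower in NTD in each cluster, from 66.1 to 47.1 CPM in cluster 14, where the NTD bar rests on 5 UMIs, to 36.8 and 11.7 CPM in the roof plate-like cluster 13.

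Wall cells were also taken by the UMIs of marker genes, whatever their cluster. Such a gate cuts a range and not a cell type. The roof marker gate held 233 control and 336 NTD wall cells, of which 97 and 157 lay at its edge. Wnt1 in it was at 60.0 and 41.8 CPM, from 57 and 51 UMIs (-0.52, -1.10 to 0.05), and Wnt8b at 142 and 151 CPM (0.08, -0.24 to 0.42). Among progenitor-like cells in this gate, 79 control cells held 33 Wnt1 UMIs and 63 NTD cells held none. Most control progenitor-like Wnt1 UMIs lay in the Hox-rich cluster 14, which held 1038 control and 39 NTD cells. The part of that cluster in this contrast was not tested. The gate of En1-positive or En2-positive cells without a Hox UMI held 51 control and 364 NTD cells, 37 and 321 of them at its edge. Wnt1 in it was at 40.4 and 20.5 CPM, from 5 and 26 UMIs (-1.09, -2.38 to 0.76). Wnt5b there was at 218 and 107 CPM, from 27 and 135 UMIs (-1.05, -1.64 to -0.38), but with 1 more marker UMI required its ratio turned to 0.75 (-0.69 to 3.29). With Hox UMIs ignored, a gate added after seeing the data, it held 150 and 411 cells. There Wnt1 was at 43.2 and 19.1 CPM, from 27 and 28 UMIs (-1.18, -1.99 to -0.36), and Wnt5b at 150 and 112 CPM (-0.43, -0.80 to -0.04). In the 27 and 47 cells with 1 more marker UMI the Wnt1 ratio turned to 0.38 (-0.88 to 1.86).

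Wnt8b, the ligand of the dorsal forebrain, was more abundant in the NTD library as a whole but lower in the pair of clusters that held the largest parts of it. In roof plate-like cells it was at 173 and 93.5 CPM in control and NTD cells, from 127 and 240 UMIs (-0.89, -1.20 to -0.56). There 21.2% of control and 16.5% of NTD cells held a Wnt8b UMI, at medians of 2349.5 and 2688 UMIs per cell. In erythroid-like cells, with medians of 1644 and 2118 UMIs, the shares were 0.897% and 3.27%. After thinning every cell to 1589 UMIs the roof plate-like shares were 17.7% and 12%. In the forebrain cluster 2 Wnt8b was at 86.2 and 36.9 CPM, from 108 and 211 UMIs (-1.23, -1.57 to -0.88), and in cluster 16 at 50.9 and 72.8 CPM (0.51, -0.02 to 1.08).

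Other marker genes of the roof plate-like cluster 13 moved with Wnt8b. There Lmx1a was at 210 and 78.3 CPM in control and NTD cells, Bmp6 at 193 and 130, and Rspo3 at 542 and 314 CPM. The 8 roof plate markers summed to 1736 and 992 CPM. Their part in the lower Wnt8b level of cluster 13 was not tested. Of the 8 ligands measured in roof plate-like cells 4 were at least 1.5-fold lower and none higher, against 16.6% and 7.58% of genes. Those 4 were Wnt3, Wnt3a, Wnt4 and Wnt8b, and with TMM scaling the count was 3.

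Wnt4 was lower in the NTD library in every wall cluster, though not always beyond counting error. It was at 23.2 and 10.3 CPM in cluster 2 (-1.18), 33.6 and 13.1 CPM in cluster 11 (-1.36), 54.7 and 17.7 CPM in cluster 16 (-1.62), and 36.8 and 11.7 CPM in roof plate-like cells (-1.66, -2.45 to -0.85). In cluster 4 it was at 18.7 and 13.5 CPM (-0.50, -1.19 to 0.31). In neuron-like cells it was at 16.7 and 6.94 CPM (-1.26), and in mesenchyme-like cells at 16.9 and 9.51 CPM (-0.82). Erythroid-like cells held Wnt4 at 19.8 and 15.3 CPM, from 9 and 6 UMIs. The NTD level in progenitor-like cells, 12.2 CPM in 3.31% of cells, was close to that background of 15.3 CPM in 3.27% of cells, whereas the control level of 46.7 CPM in 10.1% of cells stood above its background of 3.59%. In neuron-like and mesenchyme-like cells and in cluster 4 both libraries were below the erythroid-like level, so those values are read as background. In clusters 2 and 11 and in roof plate-like cells only the NTD level was below it. The size of the ratios there thus rests on an NTD value at background.

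The surface ectoderm ligands Wnt6, Wnt4 and Wnt3 were lower together in the NTD library. In epithelium or surface ectoderm-like cells (585 control and 636 NTD), Wnt6 was at 95.4 and 53.5 CPM, from 162 and 106 UMIs (-0.83, -1.20 to -0.47). Wnt4 was at 99.5 and 59.5 CPM, from 169 and 118 UMIs (-0.74, -1.09 to -0.39), and Wnt3 at 37.7 and 19.2 CPM, from 64 and 38 UMIs (-0.97, -1.59 to -0.37). Wnt7a was at 14.1 and 3.53 CPM, from 24 and 7 UMIs (-1.93, -3.46 to -0.74), and Wnt7b at 46.5 and 29.8 CPM (-0.64, -1.16 to -0.14). The NTD values of both are at or near background. Thinned to 1589 UMIs per cell, 0.314% of NTD epithelium-like cells held Wnt7a and 5.82% held Wnt7b. In NTD erythroid-like cells these shares were 1.96% and 5.23%. Of the 8 ligands measured there 5 were at least 1.5-fold lower, against 18.7% of 12407 genes, and 1 was higher, against 8.08%. The one higher was Wnt8b, at 2.94 and 10.6 CPM, no higher than in the erythroid-like cells of either library (4.40 and 12.8 CPM). With TMM scaling, which shifted all genes there by 0.20, 3 were lower (Wnt3, Wnt6 and Wnt7a) and 1 higher. Wnt4 and Wnt7b then stayed under 1.5-fold.

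Hox RNA, a mark of body position, moved with these values: at least 2 Hox UMIs were found in 40.3% of control (36.3% to 44.4%) and 2.20% of NTD epithelium-like cells. In erythroid-like cells the shares were 24.2% in control and 2.61% in NTD. The part of body position in the lower levels was not tested. The shares of ligand-positive epithelium-like cells went the same way as the levels. A Wnt6 UMI was found in 20.2% of control and 12.1% of NTD cells, and a Wnt3 UMI in 9.74% and 4.56%. Thinned to 1589 UMIs per cell, these were 12.8% and 6.76% for Wnt6 and 7.27% and 2.67% for Wnt3. In erythroid-like cells the unthinned shares were 2.69% and 3.92% for Wnt6 and 0.897% and 0% for Wnt3. Ectodermal ligands also met in the same cells: among Wnt6-positive control cells (118) 33.1% held Wnt4, against 20.6% of the rest, and among Wnt6-positive NTD cells (77) 27.3% held Wnt4, against 13.2%. Depth was not matched between positive and remaining cells, and its part in these shares was not tested.

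Wnt3 had a further source in the wall. In the boundary-gene cluster 11 it was at 36.1 and 29.99 CPM (-0.28, -0.91 to 0.41), in cluster 4 at 15.1 and 16.8 CPM, and in roof plate-like cells at 29.95 and 16.8 CPM, from 22 and 43 UMIs (-0.85, -1.61 to -0.03). In neuron-like cells it was at 0.869 and 4.17 CPM, from 4 and 27 UMIs (2.12, 0.74 to 4.24), beside 4.40 and 0 CPM in erythroid-like cells.

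Wnt5a, the main ligand of planar cell polarity, held its level in mesenchyme-like cells within counting error. It was at 63.6 and 63.7 CPM in control and NTD cells, from 728 and 617 UMIs (0.00, -0.15 to 0.16), although the mesenchyme clusters differed: cluster 5, with 1766 control and 49 NTD cells, was nearly all control. In cluster 0, which both libraries shared, Wnt5a was at 69.7 and 70.3 CPM. In cluster 16, with floor plate genes, it was highest, at 98.0 and 74.8 CPM (-0.39, -0.82 to 0.05). In cluster 4 it was at 66.8 and 39.1 CPM (-0.78, -1.16 to -0.37) and in the forebrain cluster 2 at 16.8 and 26.4 CPM (0.63, -0.01 to 1.39). The erythroid-like level was 28.6 and 23.0 CPM, so the values in cluster 2 lie at or near that background.

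Wnt5b, a close relative of Wnt5a, was the most widespread ligand. It was at 206 and 143 CPM in cluster 16 (-0.53), and in the forebrain cluster 2 at 188 and 124 CPM (-0.60, -0.81 to -0.38). In mesenchyme-like cells it was at 133 and 93.8 CPM, from 1523 and 908 UMIs (-0.50, -0.62 to -0.38), and in roof plate-like cells at 132 and 157 CPM (0.24, -0.07 to 0.58). Its erythroid-like level of 55.0 and 25.6 CPM was above that of the other ligands in control, though not in NTD cells. In mesenchyme-like cells 2 of 10 ligands were at least 1.5-fold lower and 4 higher, against 14.3% and 6.9% of genes. The 4 higher ones (Wnt3, Wnt3a, Wnt7b and Wnt8b) stood between 1.31 and 14.2 CPM, the intervals of Wnt3 and Wnt3a included 0, and Wnt7b and Wnt8b were below their erythroid-like levels.

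Wnt7a and Wnt7b, which neural progenitors make and which act on brain vessels, differed by less than 1.5-fold over all progenitor-like cells. With the erythroid-like level of each library subtracted, though, both were past it, at -0.94 for Wnt7a and -0.82 for Wnt7b. These subtracted ratios have no interval, and the erythroid-like levels rest on few UMIs. After thinning to 1589 UMIs per cell, control and NTD erythroid-like cells held 1 and 3 UMIs of Wnt7a and 2 and 8 of Wnt7b. Wnt7b was at 62.9 and 55.0 CPM in progenitor-like cells, from 347 and 602 UMIs (-0.19, -0.38 to 0.00), and at 66.3 and 63.7 CPM in the forebrain cluster 2. Wnt7a was at 21.6 and 15.5 CPM in progenitor-like cells, from 119 and 169 UMIs (-0.48, -0.83 to -0.13), and at 28.5 and 18.4 CPM in cluster 4 (-0.65). Roof plate-like cells held 1 and 9 Wnt7a UMIs, but Wnt7b was at 42.2 and 45.6 CPM there. In neuron-like cells Wnt7b was at 14.3 and 21.0 CPM (0.54), below its erythroid-like 19.8 and 30.7 CPM. Of the 8 ligands measured in neuron-like cells 1 was at least 1.5-fold lower and 4 higher, against 16% and 8.67% of genes. The lower one was Wnt4, and the higher ones were Wnt3, Wnt6, Wnt7a and Wnt8b, the last 3 below their erythroid-like levels in both libraries.

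Cells with a Wnt1, Wnt3a or Wnt8b UMI were compared with the other wall cells of the same library. Control Wnt1-positive cells (109) held Lmx1a, a roof plate and midbrain factor, at 192 CPM against 51.9 CPM, the carrier gene Wls at 520 against 226 CPM, and En1 at 31.6 against 15.1 CPM. NTD Wnt1-positive cells (89) held Lmx1a at 152 against 37.4 CPM, Wls at 575 against 170 CPM and En1 at 59.3 against 14.3 CPM. They differed in the boundary signal Fgf8, at 2.26 CPM (1 UMI) against 16.1 CPM in control and at 124 against 25.0 CPM in NTD, and in the dorsal neural tube factor Pax3, at 712 against 546 CPM in control and 227 against 280 CPM in NTD. The Wnt target Axin2 was at 81.4 against 44.5 CPM in control Wnt1-positive cells and at 43.8 (25.5 to 70.1) against 31.4 CPM in NTD. Positive cells were deeper, with medians of 2397 against 2191 UMIs in control and 3263 against 2530 in NTD, and the part of depth was not tested. The places of Wnt1-positive cells differed as well. Cluster 14, rich in Hox genes (1038 control and 39 NTD cells), held more control Wnt1 UMIs than any other wall cluster and no NTD one. How far Fgf8 and Pax3 followed these places was not tested.

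**Figure D5:**
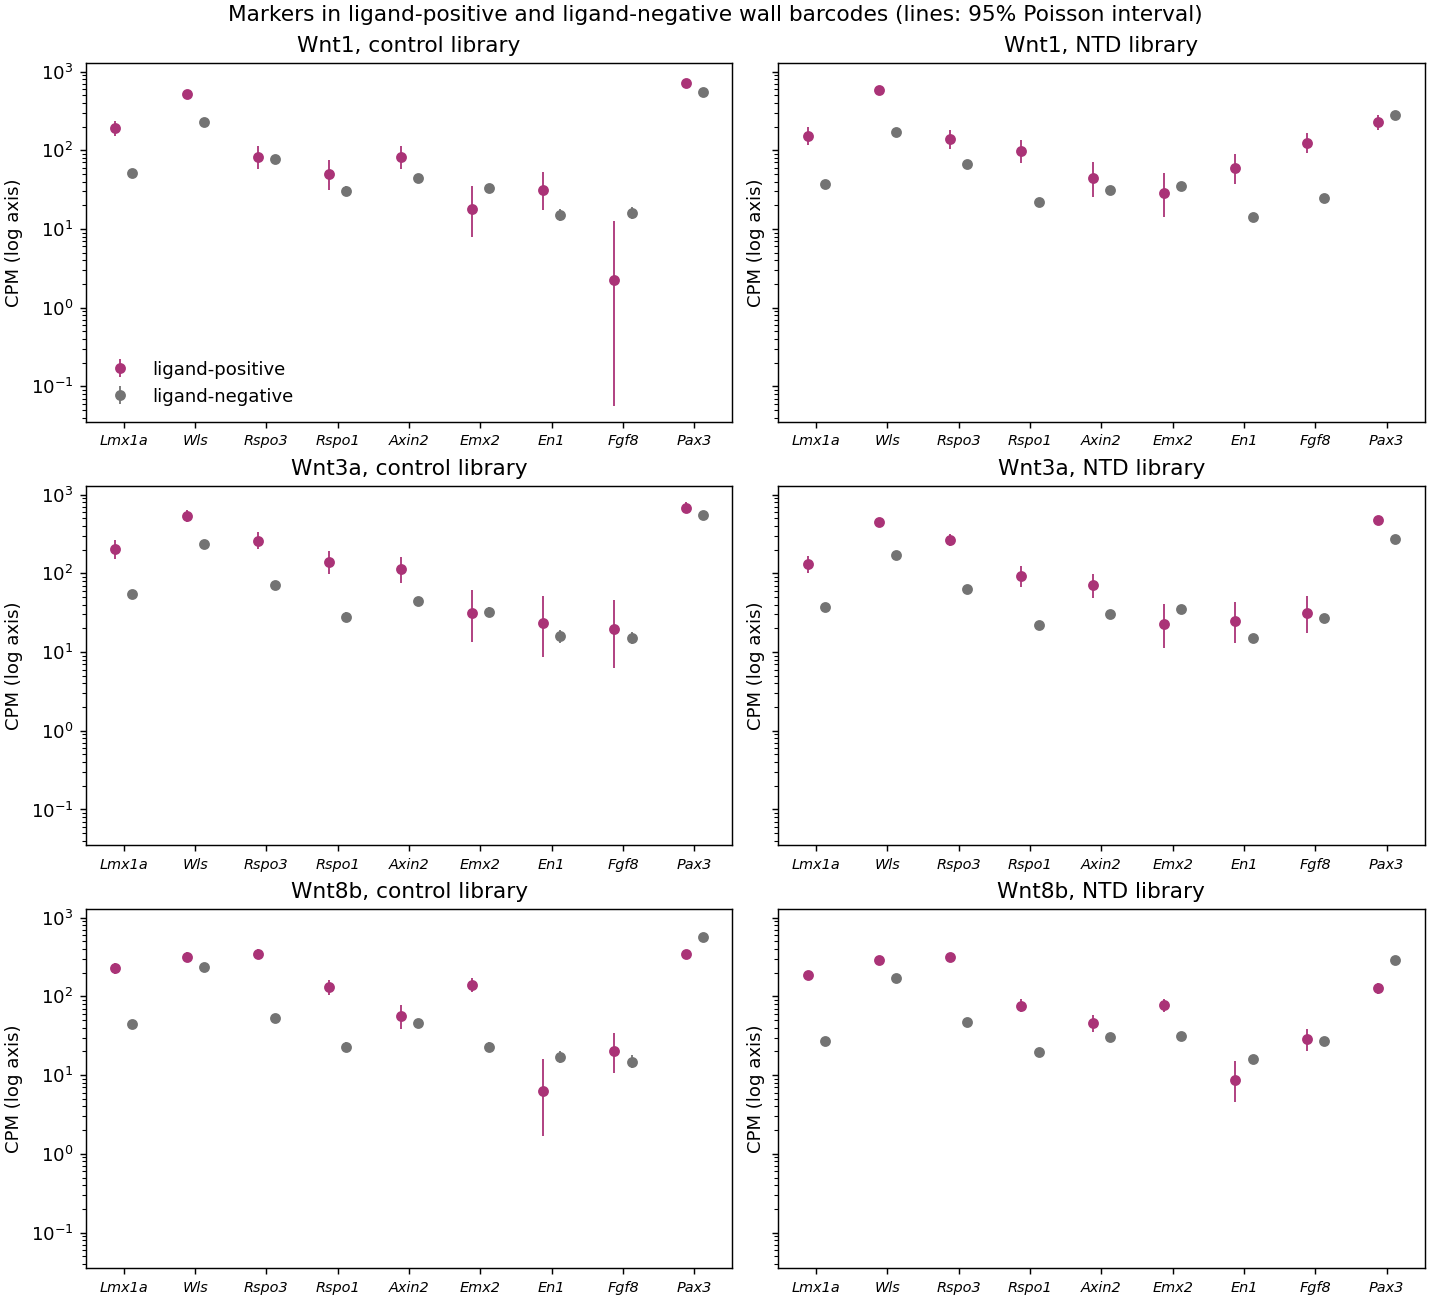
Level (CPM, log axis) of regional and pathway genes in ligand-positive wall cells and in the remaining wall cells of the same library, with 95% Poisson intervals. In Wnt1-positive cells, which were spread differently over the wall clusters in the libraries, Fgf8 stands at 2.26 CPM in the control and 124 CPM in the NTD library.

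Wnt8b-positive and Wnt3a-positive cells shared roof plate genes but not position. Control Wnt8b-positive cells (167) held Rspo3, a secreted enhancer of Wnt signalling, at 347 against 52.7 CPM and the forebrain factor Emx2 at 139 against 22.9 CPM, with Pax3 at 344 against 574 CPM. NTD Wnt8b-positive cells (404) held Rspo3 at 316 against 46.9 CPM, Emx2 at 77.2 against 31.4 CPM and Pax3 at 127 against 292 CPM. Wnt3a-positive cells (82 and 128) held Rspo3 at 261 and 267 CPM, against 70.6 and 62.5 CPM, and Axin2 at 113 and 70.4 CPM, against 44.3 and 30.6 CPM. Wnt1 and Wnt3a met in the same cells: 12.8% of control and 20.2% of NTD Wnt1-positive cells held Wnt3a, against 2.41% and 1.89% of the rest. Wnt8b-positive cells held Wnt7b in 18.0% of control and 24.3% of NTD cells, against 10.9% and 11.3%. Here too depth was not matched between positive and remaining cells, and its part in these shares was not tested.

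Across the 20 clusters with at least 50 cells in both libraries, the genes most like each ligand were found among 12570 genes by the lower of the correlations of log2(CPM + 1) in the libraries. Clusters of 1 library share its depth and any free RNA, so these values are descriptions. Wnt6 ran with the epithelial genes Epcam (r = 0.72) and Spint1 (0.72), Wnt4 with Lama5 (0.65) and the tight junction gene Cldn6 (0.64), and Wnt8b with Lrp2 (0.72) and Ildr2 (0.71). Wnt5b ran with Epha4 (0.79) and Plekhh2 (0.78), Wnt5a with Foxp4 (0.66) and Daam2 (0.62), Wnt7b with Napepld (0.79) and Pdzph1 (0.77), and Wnt7a with Zfp800 (0.72) and Pantr2 (0.68). Wnt3 ran with Map7 (0.75) and Kank1 (0.61), Wnt1 with Spef2 (0.65) and Slc39a12 (0.65), and Wnt3a with Cntfr (0.65) and Shc3 (0.63). Among the members, Wnt1 and Wnt3a were the most alike pair by the lower correlation, at 0.65 in control and 0.67 in NTD.

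The rest of the pathway was read in progenitor-like cells, from lists that, like the members, were chosen with earlier results known. Of the other Wnt ligands 4 of 9 were measured and 3 were at least 1.5-fold lower. These were Wnt16, at 5.25 and 0.274 CPM, Wnt2, at 3.62 and 1.19 CPM (-1.59), and Wnt2b, at 8.88 and 5.58 CPM (-0.67). In erythroid-like cells Wnt16 was at 2.20 and 0 CPM, and Wnt2 and Wnt2b were each at 6.60 and 2.56 CPM, from 3 and 1 UMIs. Wnt2 was thus below that background in both libraries. Of 7 secretion genes 2 were lower, the glypican Gpc3 at 598 and 230 CPM (-1.38) and the Wnt deacylase Notum (-0.79), and none was higher. Wls, at 182 and 133 CPM (-0.46), did not reach 1.5-fold. Of 10 Frizzled receptors none was lower and 3 were higher (median 0.06), with Fzd7 at 0.16 and Fzd3 at -0.13. Of 6 co-receptors 2 were lower, the Wnt5a receptors Ror1, at 93.3 and 30.4 CPM (-1.61), and Ror2, at 130 and 53.6 CPM (-1.28). These counts stand beside 15.8% lower and 6.42% higher among all genes.

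Downstream genes were mixed. None of 15 transducers such as Apc (-0.42), Axin1 (-0.35) and Dvl1 (-0.35) reached 1.5-fold. Of 13 targets and feedback genes 5 were lower, among them Axin2 at 43.7 and 25.8 CPM (-0.76) and Lgr5 (-0.70), and 2 were higher, among them the cyclin Ccnd1 at 102 and 170 CPM (0.73). The lists overlap, so their counts are not separate. Notum, Lgr5 and Rnf43 are among these lower targets and are counted again with the secretion genes or the R-spondin receptors. Lef1, Tcf7, Dkk1 and Znrf3 also stand on another list. Of 9 antagonists 3 were lower, among them Frzb (-1.02), and 1 was higher, Sfrp2, at 32.4 and 54.9 CPM (0.76). Of 7 R-spondins and receptors 3 were lower, the receptors Lgr4 (-0.61) and Lgr5 and the ubiquitin ligase Rnf43 (-0.99), and none was higher. Over all 6 wall clusters 2 of the 13 targets were lower and 1 higher, and 1 of 8 R-spondins and receptors was lower. Of 10 antagonists 3 were lower and 2 higher, and of 10 Frizzled receptors 1 was lower and 3 higher. Lower were also 2 of 6 co-receptors, 1 of 7 secretion genes and 3 of 4 other ligands, with none higher, and no transducer was called. These counts stand beside 15.1% lower and 5.33% higher among all genes. Position along the neural tube cannot be told apart from treatment in these values.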

How the data were processed

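The matrices as deposited hold raw UMI counts per gene and barcode for 1 control and 1 NTD library, and per the file headers the authors made them with Cell Ranger 7.0.1. Libraries were built with 10x 3′ chemistry, per the labels' protocols, and the labels do not state the annotation, intron setting or cell calling.

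Counts were read in Python 3.11.15. The cell filter (at least 500 genes and 1000 UMIs, at most 10% mitochondrial UMIs) removed 0 barcodes. Because Scrublet's automatic threshold called unequal shares (34.6% of control and 12.6% of NTD barcodes), the top 15% of scores in each library was removed, 2786 and 2858 barcodes, a choice made after seeing that result. Both libraries were clustered together in scanpy 1.11.5 (2000 variable genes without Wnt genes, 30 principal components, 15 neighbours, leidenalg 0.10.2 at resolution 1). A class name needed at least 3 markers held by 10% of the cells at 1.25-fold, a lead of 1 over the next class, set after the clusters were seen, and no more markers of another class among the 10 leading genes. Class names are rebuilt here and may differ from the study's. A cluster's own leading genes are not results.

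UMIs were summed per class and library and scaled to CPM with exact Poisson intervals, log2 ratios used 0.5 added counts and exact conditional binomial intervals, and shares Clopper-Pearson intervals, all at 95% and covering counting error only. A gene was measured with at least 20 UMIs over both libraries and counted at 1.5-fold. TMM scaling came from edgeR 4.0.16. The ratio script was tested on simulated data. For each member the 2 most alike genes were named (at least 200 UMIs, no Wnt, haemoglobin, mitochondrial or predicted genes), and from each pathway list up to 3 genes of at least 20 CPM with the largest ratio. Members and lists were chosen with earlier results of these data known. Some marker gates that were tried are not reported here. Further genes are named as examples or markers, chosen after their values were seen.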

Additional observations from a re-analysis of the deposited data

Results flagged for a closer look

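For 4 ligands the ratio of NTD over control pointed up in one class and down in another, with the 95% counting interval clear of 0 in both, and none of these differences was tested.

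Wnt8b was at 3.87 and 17.9 CPM in neuroblast-like cells (7 and 40 UMIs, 2.12) and at 86.2 and 36.9 CPM in the forebrain cluster 2 (-1.23), which differ by 3.35 on the log2 scale, beside 4.40 and 12.8 CPM in erythroid-like cells. Wnt3 was at 2.12 in neuron-like cells, from 4 and 27 UMIs, and at -0.97 in epithelium or surface ectoderm-like cells, a difference of 3.08.

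Wnt5b was at 16.3 and 33.5 CPM in endothelium-like cells (21 and 33 UMIs, 1.03) and at 41.8 and 21.1 CPM in neural crest-like cells (39 and 13 UMIs, -0.95), a difference of 1.98. In control cells both levels were below the 55.0 CPM of erythroid-like cells. Wnt7b was at 9.31 and 20.3 CPM in endothelium-like cells (12 and 20 UMIs, 1.10), below the erythroid-like 19.8 and 30.7 CPM, and at -0.64 in epithelium-like cells, a difference of 1.74. The NTD level of Wnt7b in epithelium-like cells was also below the erythroid-like one.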

How the results depend on the processing

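No paired analysis was possible because each group had 1 library. Of 177 ligand ratios recomputed under alternatives, 126 stayed within the counting interval of the reported ratio, 48 moved and 3 reversed. Only a reported ratio of at least 1.5-fold that changed sign was labelled reversed. Smaller ratios also changed sign and are not among the reversed. Examples are Wnt3a and Wnt7a in both cluster weightings, and Wnt5a with TMM scaling. Over all kept cells the count of ligands at least 1.5-fold lower was 3, and it was 1 at 2-fold, 1 with TMM scaling and 1 with doublets kept, and 2 with the stricter filter, thinned cells or without clusters over 90% from 1 library. The count higher was 1, and it was 0 at 2-fold, 2 with TMM scaling, 2 under a stricter cell filter and 0 without clusters over 90% from 1 library. In progenitor-like cells the count lower was 3, and it was 5 with doublets kept, 5 without the Hox-rich cluster, which is also the only progenitor-like cluster over 90% from 1 library, and 4 with the stricter filter or with Wnt genes among the variable genes. The count higher went from 0 to 1 (Wnt5a, 1.29) when the erythroid-like level was subtracted, and the 3 lower were then Wnt7a (-0.94), Wnt7b (-0.82) and Wnt8b (-0.90). These ratios have no interval, and the subtracted levels rest on few UMIs. Wnt1, Wnt3a, Wnt4 and Wnt6 gave no value after subtraction, because under 1 CPM was left in a library, a limit set after the values were seen. The cause of these moves was not tested, except that 2-fold is the stricter call. Wnt8b over all kept cells reversed to -0.39 at the NTD cluster shares. With 1 more marker UMI, Wnt5b reversed to 0.75 in En1-positive or En2-positive, Hox-negative cells and Wnt1 to 0.38 in those cells with Hox UMIs ignored. The cluster weights, the gate with Hox UMIs ignored and the removal of the Hox-rich or low-UMI clusters were chosen after seeing the data. Depth limits Wnt1 and Wnt3a most, with under 300 UMIs each per library.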

Other observations

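Among the other 9 ligands, Wnt16 and Wnt2 were far lower in the NTD library over all kept cells. Wnt16 had 311 control and 20 NTD UMIs (-4.13), Wnt2 306 and 70 (-2.32) and Wnt11 79 and 28 (-1.68). Of the Wnt16 UMIs, 213 in control and 8 in NTD lay in mesenchyme-like cells, whose cluster 5 held 1766 control and 49 NTD cells. Of the Wnt2 UMIs, 66 and 8 did. Wnt2b had 328 and 253 UMIs (-0.57), and Wnt8a 2 and 1.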
